A study of Mus musculus with 8 samples.

Results

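The 8 genes described here encode voltage-gated potassium channels of the Kv1 and Kv3 families: the Kv1 pore subunits Kcna1, Kcna2 and Kcna6, the Kv1 beta subunits Kcnab1 and Kcnab2, and the Kv3 pore subunits Kcnc1, Kcnc2 and Kcnc4. They were taken by symbol from a table of 15035 genes, and all 8 were present and passed the filter on low values. The samples are mouse auditory nerves of postnatal day 21, profiled by bulk RNA sequencing. Both cochleas of a mouse were pooled into 1 library. The 4 wild-type libraries are replicates 1 to 4, and the 4 libraries labelled as Mef2c heterozygotes (+/-) are replicates 5 to 8. The design asks which transcripts differ in the nerve when 1 of the copies of Mef2c, a transcription factor gene, is lost. The labels give no strain, sex or litter, and they do not describe the Mef2c allele.

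Kv1 channels open at voltages close to rest and limit how many action potentials a neuron fires to one stimulus. In myelinated axons they gather under the myelin beside the paranodes, bound to Caspr2 and to cytoplasmic beta subunits that act in their trafficking and inactivation. Kv3 channels open only at strongly depolarised voltages and close fast, which shortens the action potential and lets auditory neurons fire at high rates. Spiral ganglion neurons, whose axons form the auditory nerve, are known to carry currents of both families.

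The pore subunits of both families share a short signature in the selectivity filter, the part of the pore that passes potassium. The stretches below show how close the transcripts of these paralogs are, since reads from a stretch they share could be counted for either gene. Each is 45 bases of coding sequence from the GENCODE M21 transcripts (mm10), 5′ to 3′, and the capitals mark the 15 bases that encode the signature.
Kcna1: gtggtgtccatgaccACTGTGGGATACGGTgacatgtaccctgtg
Kcna2: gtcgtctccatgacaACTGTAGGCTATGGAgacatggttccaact
Kcna6: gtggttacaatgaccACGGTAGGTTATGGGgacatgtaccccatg
Kcnc1: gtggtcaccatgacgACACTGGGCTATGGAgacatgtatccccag
Kcnc2: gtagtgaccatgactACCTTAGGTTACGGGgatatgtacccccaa
Kcnc4: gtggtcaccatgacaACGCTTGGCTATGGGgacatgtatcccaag
Against the Kcna1 stretch, Kcna6 differed at 10 of the 45 bases, Kcnc1 at 12, Kcnc2 and Kcnc4 at 13 each and Kcna2 at 14. Shared runs were searched over the full length of all transcripts of each gene, not only the coding part. The longest identical run between Kcna1 and Kcna2 was 20 bases, and that between Kcna1 and Kcna6 was 31 bases. Kcnc1 shared at most 29 bases with Kcnc2 and with Kcnc4. The longest run between any 2 of the 8 genes was 47 bases, a repeat of C and T in Kcna2 and Kcnc1. A read falling wholly in a shared run could not be placed in 1 gene. The read length is not given in the sources used here. The beta subunits Kcnab1 and Kcnab2 shared at most 26 bases.

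Values are normalized counts, that is reads per gene scaled by 1 size factor for each library, as judged from the values. From the step between neighbouring values, the libraries were estimated to hold 13363282 to 21507345 counted reads, and 3 reads were worth 2.37 to 3.89 normalized counts. Wild-type library 1 was the shallowest and had the largest share of Rn45s, the ribosomal RNA precursor, at 4.28% against 1.598% to 2.91% in the other libraries. Xist was at 12 and 7.60 normalized counts in wild-type library 1 and heterozygote-labelled library 5, and between 5175 and 8615 in the rest. Mef2c was at 438.6, 498.4, 508.7 and 402.2 normalized counts in the wild-type libraries and at 583.3, 704.9, 735.1 and 649.8 in the heterozygote-labelled libraries. All 4 of the latter were above all 4 wild-type libraries, so the level of the targeted gene goes against the label. Its fold change on the log2(value + 1) scale was 0.53 with a standard error of 0.13 (limma-trend, adjusted p = 0.186). The authors' deposited table gives Mef2c a ratio of 1.44 and an FDR of 0.0162. Every direction below is that of the libraries as labelled. Which part of Mef2c these reads cover is not analysed here, so the value does not show whether the product is intact.

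None of the 8 channel genes differed between genotypes by more than the spread between libraries. Limma-trend with Benjamini-Hochberg adjustment over 14870 genes called 0 of 8 at an adjusted p under 0.05, where 0.0807% of all genes were called. At an unadjusted p under 0.05 it also called 0 of 8, where 14.1% of all genes were called. The wild-type and heterozygote-labelled values overlapped for all 8, while 7.26% of all genes had genotypes that did not overlap. 6 of the 8 log2 fold changes were above 0 and 2 were below, with a median of 0.23 beside 0.02 over all genes tested. The authors' deposited table likewise gives an FDR of 0.42 or more for each of the 8 genes.

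Kcna1 encodes Kv1.1, a pore subunit of the low-threshold potassium current (chromosome 6, 126640397 to 126646384, minus strand, mm10, as are all gene positions below). Kcna1 stood at 7228.6, 11542.9, 16462.7 and 11531.4 normalized counts in wild-type libraries 1 to 4. In heterozygote-labelled libraries 5 to 8 it stood at 14696.5, 13371.0, 13830.4 and 16565.6. Wild-type library 1 was the lowest, and wild-type library 3 was nearly as high as the highest heterozygote-labelled library. The means were 11691 ± 3774 and 14616 ± 1411 (SD, n = 4 each). The log2 fold change was 0.38 (standard error 0.20, 95% interval -0.05 to 0.81, limma-trend, adjusted p = 0.395), and an exact permutation test gave a two-sided p of 0.171, where 4 against 4 allows no p under 0.0286. Leaving out wild-type library 1 gave 0.17 (adjusted p = 0.635), and leaving out wild-type library 3 gave 0.56 (adjusted p = 0.0800).

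Kcna2 encodes Kv1.2, which assembles with Kv1.1 in axons (chromosome 3, 107101146 to 107115005, plus strand). Its wild-type values were 8801.5, 10779.5, 16379.3 and 12710.2 normalized counts. The heterozygote-labelled values were 15651.3, 14156.0, 12556.3 and 16184.0. The same 2 wild-type libraries, 1 and 3, gave the lowest and the highest value. The means were 12168 ± 3230 and 14637 ± 1631 (SD, n = 4 each), with a log2 fold change of 0.30, a standard error of 0.17 and a 95% interval of -0.07 to 0.67 (limma-trend, adjusted p = 0.431). It was 0.15 without wild-type library 1, 0.45 without wild-type library 3 and 0.02 after a correction for transcript length.

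Kcna6 encodes Kv1.6, a further Kv1 pore subunit (chromosome 6, 126708329 to 126740674, minus strand). It was read at 863.0, 529.9, 806.6 and 706.6 normalized counts in wild type and at 619.1, 735.4, 712.4 and 757.6 in the heterozygote-labelled libraries. Wild-type library 1, the lowest for Kcna1 and Kcna2, was here the highest. The means were 726.5 ± 146 and 706.1 ± 60.9 (SD, n = 4 each), and the log2 fold change was -0.02 with a 95% interval of -0.35 to 0.31 (limma-trend, adjusted p = 0.958).

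**Figure D1:**
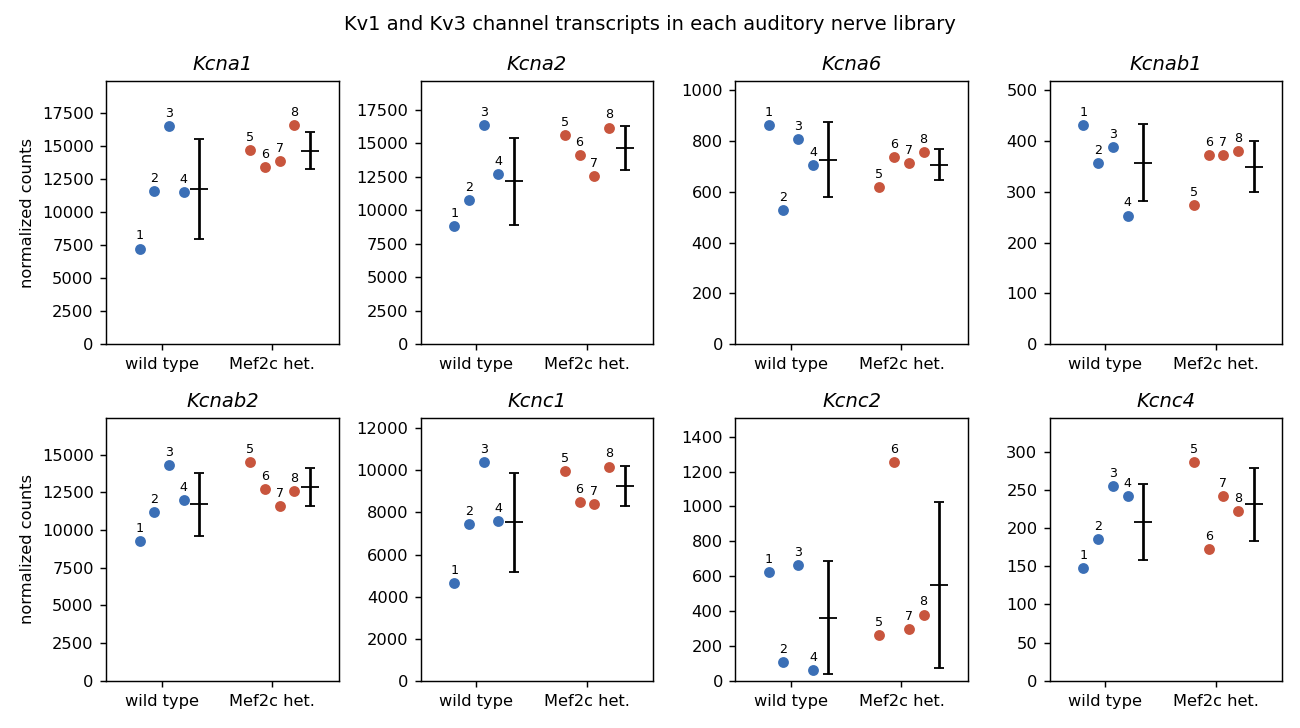
Normalized counts of the 8 channel genes in each library (vertical axis, linear and starting at 0), wild type in blue and heterozygote-labelled in red, with replicate numbers beside the points and bars for the mean ± SD of 4 libraries. The genotypes overlap in every panel. Wild-type library 1 is the lowest point for Kcna1, Kcna2, Kcnab2, Kcnc1 and Kcnc4, and Kcnc2 spreads from 60.4 to 1257.3.

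The beta subunits bind the cytoplasmic side of Kv1 channels. Kcnab2, which encodes Kv-beta 2 (chromosome 4, 152390742 to 152477871, minus strand), was at 9297.3, 11182.3, 14338.4 and 12001.4 normalized counts in wild type. Heterozygote-labelled libraries had 14536.0, 12707.9, 11578.3 and 12597.7. Like the pore subunits Kcna1 and Kcna2, Kcnab2 was lowest in wild-type library 1. Its means were 11705 ± 2089 and 12855 ± 1231 (SD, n = 4 each), and its log2 fold change was 0.15 with a 95% interval of -0.14 to 0.44 (limma-trend, adjusted p = 0.613). Without the 2 libraries low in Xist it was -0.02.

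Kcnab1, which encodes Kv-beta 1, a subunit able to confer fast inactivation (chromosome 3, 65109384 to 65378223, plus strand), was at 432.2, 356.4, 388.7 and 253.6 normalized counts in wild type. It was at 273.7, 372.9, 373.2 and 380.7 in the heterozygote-labelled libraries, where 3 values lay within 8 counts of each other and library 5 stood below them. The means were 357.7 ± 76.0 and 350.1 ± 51.1 (SD, n = 4 each), and the log2 fold change was -0.02 with a 95% interval of -0.42 to 0.39 (limma-trend, adjusted p = 0.974). Nphp4 overlaps Kcnab2 on the opposite strand, and A330015K06Rik overlaps Kcnab1. The libraries were made with a strand-marking kit per the labels, but whether counting used the strand is not given in the sources used here. Nphp4 was at 142.0 to 232.8 normalized counts and A330015K06Rik at 5.20 to 22.0.

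Kcnc1 encodes Kv3.1, the Kv3 subunit best known from fast-firing auditory neurons (chromosome 7, 46396497 to 46438704, plus strand). Its normalized counts were 4646.0, 7468.9, 10417.8 and 7597.5 in wild type and 9986.4, 8482.1, 8414.3 and 10184.3 in the heterozygote-labelled libraries. Wild-type library 1 was again the lowest and wild-type library 3 the highest of all 8. The means were 7533 ± 2357 and 9267 ± 949 (SD, n = 4 each). The log2 fold change was 0.35 (standard error 0.19, 95% interval -0.07 to 0.78, limma-trend, adjusted p = 0.421). With wild-type library 1 left out it was 0.14, and with wild-type library 3 left out 0.53 (adjusted p = 0.0943).

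Kcnc4 encodes Kv3.4, a Kv3 subunit whose current inactivates (chromosome 3, 107438303 to 107459552, minus strand). It was at 147.9, 185.3, 254.8 and 241.6 normalized counts in wild type and at 286.8, 172.5, 241.3 and 222.2 in the heterozygote-labelled libraries. The ranges of the genotypes covered nearly the same levels, with means of 207.4 ± 49.8 and 230.7 ± 47.3 (SD, n = 4 each). The log2 fold change was 0.16 with a 95% interval of -0.32 to 0.65 (limma-trend, adjusted p = 0.751).

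Kcnc2 encodes Kv3.2 (chromosome 10, 112271121 to 112467024, plus strand) and varied more than any other of the 8 genes. Its normalized counts were 622.9, 105.7, 662.7 and 60.4 in wild type and 265.0, 1257.3, 298.7 and 380.7 in the heterozygote-labelled libraries. The wild-type libraries fell into 2 high and 2 low values, and heterozygote-labelled library 6 stood above all others. The means were 362.9 ± 324 and 550.4 ± 474 (SD, n = 4 each), and the log2 fold change was 0.95 (standard error 0.73, 95% interval -0.65 to 2.56, limma-trend, adjusted p = 0.554). It was 0.32 without wild-type library 4, 0.45 without heterozygote-labelled library 6, 1.47 without wild-type library 3 and 1.68 without both low-Xist libraries. The upper ends of the intervals of the other 7 genes were all at or below 0.81, so the values limit a rise of those 7 more closely than a rise of Kcnc2.

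**Figure D2:**
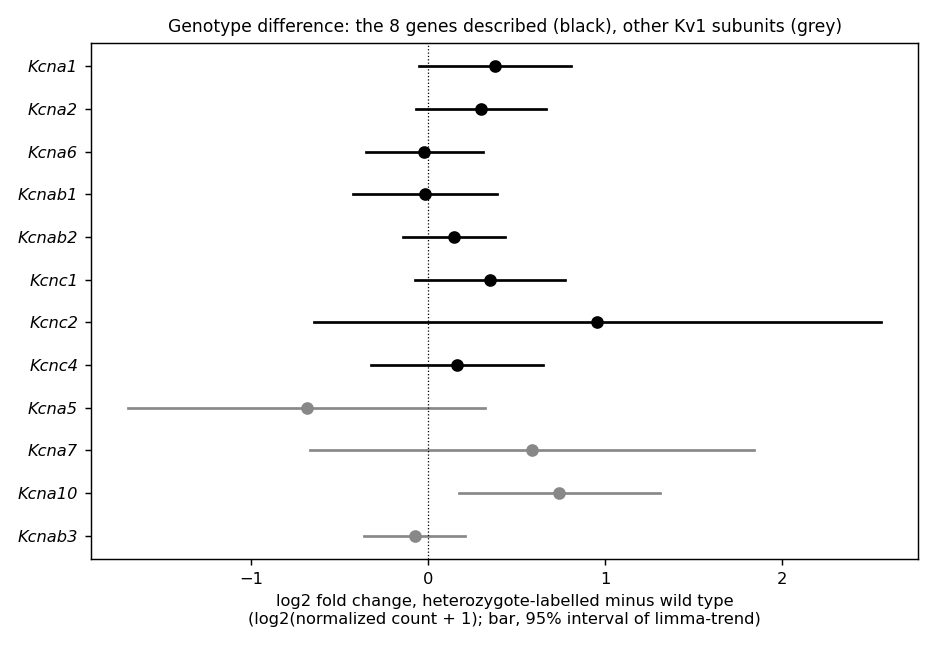
Log2 fold change of the heterozygote-labelled libraries against wild type on the log2(normalized count + 1) scale (horizontal axis) for the 8 channel genes (black) and 4 other Kv1 subunits (grey), with 95% intervals of limma-trend as bars. The intervals of all 8 genes cross 0, and that of Kcnc2 is the widest of them, from -0.65 to 2.56.

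The highest Kcnc2 library held 20.8 times the normalized counts of the lowest. Among all genes, 3.19% had a highest library at least 10 times the lowest, and Kcnc2 was the 1 of the 8 channel genes that did. Its coefficient of variation over the 8 libraries was 85.2%, above that of 99.6% of the 13356 genes with a mean of at least 50 normalized counts. The coefficients of the other 7 genes ran from 13.9% for Kcnab2 to 23.3% for Kcna1, beside a median of 16.3% over those genes. The order of the libraries for Kcnc2 did not follow that of Kcna1 or Kcnc1: wild-type library 1, lowest for both, was the third highest for Kcnc2.

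Kv1 channels form as tetramers of mixed subunits, so the proportions of subunit transcripts within a library were compared. A ratio within a library does not depend on the size factor and shows only unequal change. The log2 ratio of Kcna1 to Kcna2 was -0.08 ± 0.17 in wild type and 0.00 ± 0.11 in the heterozygote-labelled libraries (SD, n = 4 each), a difference of 0.08 (exact permutation p = 0.457, adjusted over 4 ratios 0.743). Kcnab2 against the summed Kv1 pore subunits Kcna1, Kcna2 and Kcna6 was at -1.05 ± 0.15 and -1.22 ± 0.14, a difference of -0.18 (exact permutation p = 0.171, adjusted 0.686). Kcnab1 against Kcnab2 was at -5.04 ± 0.48 and -5.21 ± 0.35 (exact permutation p = 0.6, adjusted 0.743). For Kcnc1 against the sum of Kcnc2 and Kcnc4 the values were 3.86 ± 1.01 and 3.70 ± 0.76 (exact permutation p = 0.743, adjusted 0.743). All 4 ratios overlapped between genotypes.

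Levels of different genes were compared per length, as normalized counts per kilobase of the longest coding transcript, averaged over the 8 libraries. On that scale Kcna1 was at 3263 and Kcnab2 at 3131, and the order of this pair was not separated, since Kcna1 was the higher in 5 of 8 libraries. Kcna2 followed at 1157 and Kcnc1 at 1082, a pair whose ranges also overlapped. Kcnab2 lay above Kcna2, and Kcnc1 above Kcna6, in 8 of 8 libraries with ranges that did not overlap. The lower group was Kcna6 at 122.7, Kcnab1 at 109.1, Kcnc2 at 90.5 and Kcnc4 at 59.7, and its neighbours overlapped. Per kilobase the order depends on which transcript is used, since the longest coding transcript of Kcna2 has 11582 bases and its shortest 2430. With the union of all exons as the length, Kcna1 at 2752 and Kcnab2 at 2201 remained above Kcna2 at 1126 and Kcnc1 at 888.1, and Kcnab1 moved to the lowest place at 41.2. With the shortest coding transcript as the length, the order changed: Kcna2 at 5515 lay above Kcna1 at 4176, and Kcnc2 at 766.2 above Kcna6 at 206.8. Kcnab2 was then at 30396. The shortest coding transcripts of Kcnab2 and Kcnc2 have only 404 and 596 bases, beside coding sequences of 1146 and 1926 bases in their longer transcripts. Such short annotated transcripts raise the values of these genes on that scale.

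Of 6 further Kv1 subunits listed, 4 were in the table (Kcna5, Kcna7, Kcna10 and Kcnab3), and Kcna3 and Kcna4 were not analysed here. None of the 4 passed at an adjusted p under 0.05. At an unadjusted p under 0.05, which 14.1% of all genes reached, 1 was higher and 0 were lower. Their median log2 fold change was 0.25. Kcna10, a Kv1 pore subunit, was the gene with the unadjusted call. It had 231.0, 243.7, 392.3 and 326.1 normalized counts in wild type against 530.1, 280.6, 587.1 and 647.9 (log2 fold change 0.74, exact permutation p = 0.0857, limma-trend adjusted p = 0.278). The authors' deposited table gives Kcna10 a ratio of 1.71 and an FDR of 0.096. Kcna5, which encodes the pore subunit Kv1.5, was low, at 67.5, 25.2, 28.4 and 44.7 normalized counts in wild type and 38.0, 12.2, 24.5 and 26.3 in the heterozygote-labelled libraries. The genotypes overlapped, with a log2 fold change of -0.69 (exact permutation p = 0.171, limma-trend adjusted p = 0.502).

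Proteins that hold Kv1 channels in place were examined with a list of 15 genes, all of them in the table. They include the juxtaparanodal adhesion molecules Caspr2 (Cntnap2) and contactin-2 (Cntn2), the PSD-95 family of scaffolds, and the ADAM and LGI proteins that bind each other. None passed at an adjusted p under 0.05, while 1 was higher and 1 lower at an unadjusted p under 0.05, which 14.1% of all genes reached. The median log2 fold change was 0.01. Adam11, an ADAM protein known to localise Kv1 channels at basket cell terminals of the cerebellum, had 995.4, 696.3, 1303.4 and 654.7 normalized counts in wild type. Heterozygote-labelled libraries had 1526.1, 1361.9, 1359.9 and 1728.0, all above the wild-type values. Adam11 was the 1 of the 15 genes whose genotypes did not overlap, beside 7.26% of all genes. Its log2 fold change was 0.76 (standard error 0.19, exact permutation p = 0.0286, limma-trend adjusted p = 0.214). It passed only when wild-type library 3 was left out (limma-trend adjusted p = 0.0188), a setting in which 221 of all genes passed in place of 12. Cntn2 had a log2 fold change of -0.27 (exact permutation p = 0.114, limma-trend adjusted p = 0.317) with means of 2561 ± 355 and 2116 ± 119 (SD, n = 4 each).

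The remaining voltage-gated potassium channel subunits, 21 of 28 listed, had 0 calls at an adjusted p under 0.05, 2 higher and 1 lower at an unadjusted p under 0.05 and a median log2 fold change of 0.14. These 3 of 21 are close to the 14.1% of all genes called at that p. Kcnh7, an ERG-type channel, was low, at 4.8 to 41.2 normalized counts in wild type and 26.4 to 70.3 in the heterozygote-labelled libraries (log2 fold change 1.62, exact permutation p = 0.0571, limma-trend adjusted p = 0.294). Kcnd1, an A-type channel subunit, was at 186.5 ± 36.9 and 270.9 ± 60.9 (SD, n = 4 each; log2 fold change 0.53, limma-trend adjusted p = 0.316). Both ranges overlapped between genotypes.

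The nerve is a mixture of neurons, glia and other cells, and in bulk RNA fewer cells of a type and less RNA per cell cannot be told apart. All 18 neuron markers were in the table with none at 0, and their summed level was 243263 to 316925 normalized counts in wild type and 257754 to 309417 in the heterozygote-labelled libraries. None of the 18 passed, and their median log2 fold change was 0.00. Set against the median neuron marker of the same library, the difference between genotypes was 0.38 for Kcna1, 0.30 for Kcna2, 0.35 for Kcnc1, 0.15 for Kcnab2 and 0.17 for Kcnc4 on the log2 scale. It was -0.02 for Kcna6, -0.01 for Kcnab1 and 0.96 for Kcnc2, and the genotypes overlapped for all 8. Markers of some other cells stood further apart. Oligodendrocyte markers, 12 of 12 in the table and none at 0, summed to 113175 to 145044 normalized counts in wild type and to 57763.7 to 78062.0 in the heterozygote-labelled libraries, and 3 of the 12 fell at an adjusted p under 0.05. Myelinating Schwann cell markers, 9 of 9 with none at 0, summed to 218020 to 254808 and 164121 to 193454, with 1 of 9 lower at an adjusted p under 0.05. Neutrophil markers, 4 of 7 in the table and none of these at 0, summed to 106.3 to 2346 and 649.1 to 6030.2, with 0 of 4 called at an adjusted p under 0.05. Their median log2 fold change was 3.675. Of these 4, 3 were higher in every heterozygote-labelled library than in any wild-type library, while 7.26% of all genes did not overlap in either direction. The other marker, at 2176.4 normalized counts in wild-type library 1, overlapped. Hair cell markers, 8 of 9 in the table, overlapped, with sums of 7650.4 to 9717.2 and 7299.0 to 11214.7. Of these 8, 0 were called at an adjusted p under 0.05. Over all genes tested, 0.0807% were called at that adjusted p. The part of these cell types in the channel values was not tested.

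Over all 8 libraries, the channel genes fell into those that moved together and those that did not. Pearson's r was computed on log2(value + 1) over the 8 libraries for 28 pairs, with exact permutation p-values adjusted over them. Kcna1 and Kcnc1 had r = 0.99 (rho = 0.93, exact p = 1.984e-04, adjusted 0.00278; rho exact p = 0.00223, adjusted 0.0312). Kcna2 and Kcnc1 had r = 0.96 (rho = 0.98, exact p = 1.736e-04, adjusted 0.00278; rho exact p = 3.968e-04, adjusted 0.0111). Low values of the Kv1 genes thus came with low values of the Kv3 gene, in the same libraries. Kcna1 with Kcna2 reached 0.94 (rho = 0.86, exact p = 6.944e-04, adjusted 0.00486; rho exact p = 0.0107, adjusted 0.05). Kcna2 with Kcnab2 reached 0.94 (rho = 0.88, exact p = 4.960e-04, adjusted 0.00463; rho exact p = 0.00724, adjusted 0.05). Kcnab2 with Kcnc1 reached 0.93 (rho = 0.86, exact p = 0.00181, adjusted 0.0101; rho exact p = 0.0107, adjusted 0.05). The weakest of these pairs was Kcna1 with Kcnab2 at 0.88 (rho = 0.69, exact p = 0.00598, adjusted 0.0279; rho exact p = 0.0694, adjusted 0.194).

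These 6 pairs were the ones with an adjusted p for r under 0.05. The share over all pairs of genes was not computed, so the calls do not set these pairs apart from other genes. Outside the 2 families, Kcnc1 had r = 0.998 with Aak1, picked for its high r, 0.95 with Slc17a7 and 0.23 with Syt1. Without the 2 libraries farthest from the median of the first gene, which always included wild-type library 1, r was 0.96 for Kcna1 and Kcnc1, 0.94 for Kcna2 and Kcnc1 and 0.87 for Kcna1 and Kcna2. It was 0.81 for Kcna2 and Kcnab2, for Kcnab2 and Kcnc1 and for Kcna1 and Kcnab2. Within wild type, with 4 libraries, the 6 pairs had r from 0.95 to 0.999. Within the heterozygote-labelled libraries, Kcna2 and Kcnc1 had 0.92, Kcna1 and Kcnc1 had 0.88, Kcna1 and Kcna2 had 0.75, Kcna2 and Kcnab2 had 0.70 and Kcnab2 and Kcnc1 had 0.63. For Kcna1 and Kcnab2 it was 0.18 there, so this pair rested mainly on wild type. Without wild-type library 1, r of that pair was 0.68 (exact p = 0.0998). Kcnc4 had r of 0.73 to 0.79 with Kcna1, Kcna2, Kcnc1 and Kcnab2, which did not pass the adjustment (smallest adjusted p of these 4 exact tests 0.0678). Kcnc2, Kcna6 and Kcnab1 had r between -0.42 and 0.18 with the same 4 genes. In the same check without 2 libraries, Kcnc2 had 0.70 with Kcna1, 0.63 with Kcnab2, 0.50 with Kcnc1 and 0.47 with Kcna2. Kcna6 had 0.58 with Kcna1, 0.22 with Kcna2, 0.17 with Kcnc1 and -0.12 with Kcnab2. Kcnab1 ran from -0.63 with Kcnc1 to 0.38 with Kcna1. For Kcnc2 and Kcna6, the libraries left out here included wild-type library 1, so their place in the split depends in part on it. Kcna6 with Kcnab1 had rho = 0.88 (exact p = 0.00724, adjusted 0.05, which is not under the threshold) and r = 0.47 (exact p = 0.231, adjusted 0.462).

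**Figure D3:**
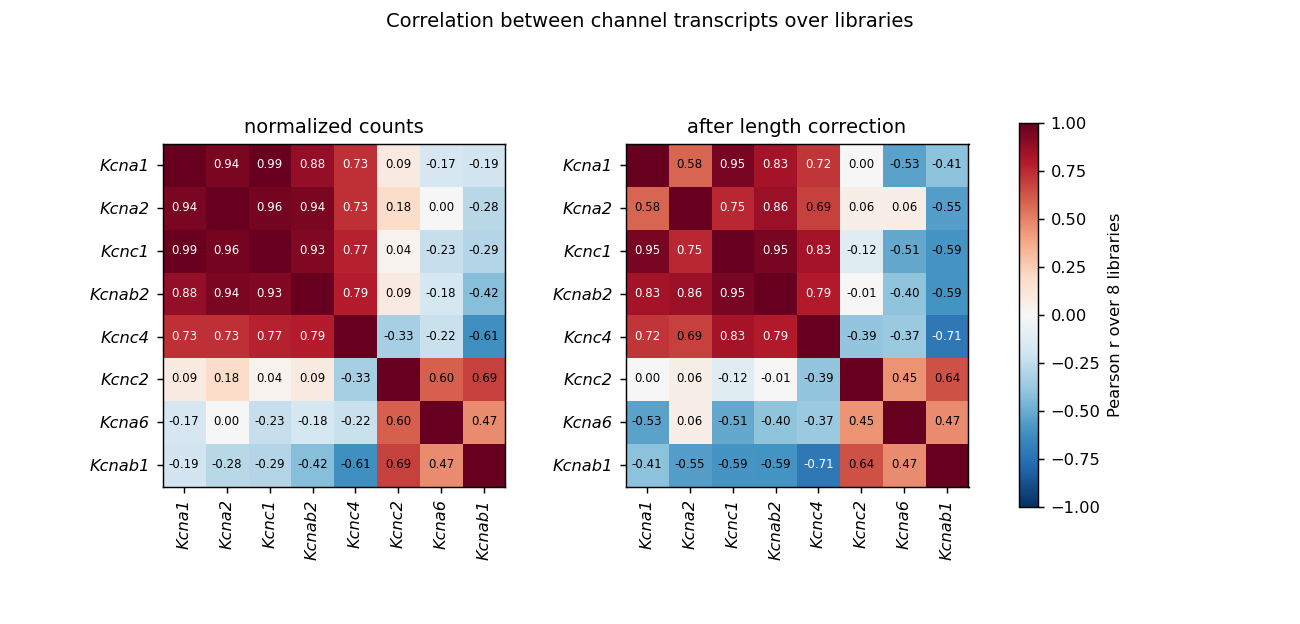
Pearson's r between the 8 channel genes over 8 libraries, on log2(normalized count + 1) at left and after removal of each library's trend with transcript length at right, coloured from -1 (blue) to 1 (red). Kcna1, Kcna2, Kcnc1 and Kcnab2 form a block of high r at left, from 0.88 to 0.99, and at right Kcna1 with Kcna2 is at 0.58.

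The libraries also differed in how values depended on transcript length, over all genes with a length. The slope of a library's log2 deviation from the gene mean, per doubling of transcript length, was -0.21, -0.03, 0.07 and -0.10 in wild-type libraries 1 to 4. It was 0.03, 0.05, 0.04 and 0.15 in heterozygote-labelled libraries 5 to 8. Long transcripts were thus lowest in wild-type library 1 and highest in heterozygote-labelled library 8. The level of Kcna1 followed this slope with r = 0.95 over the 8 libraries (rho = 0.90, exact p = 4.216e-04, adjusted over 8 genes 0.00337; rho exact p = 0.00456, adjusted 0.0290). Kcnc1 followed it with r = 0.92 (rho = 0.88, exact p = 0.00126, adjusted 0.00506; rho exact p = 0.00724, adjusted 0.0290). Kcna2 followed it with r = 0.87 (rho = 0.81, exact p = 0.00521, adjusted 0.0139; rho exact p = 0.0218, adjusted 0.0581). Without wild-type libraries 1 and 4, the 2 farthest from the median slope, r was 0.85, 0.74 and 0.78. Within the heterozygote-labelled libraries it was 0.85, 0.58 and 0.61. Kcnab2 had r = 0.75 (rho = 0.60, exact p = 0.0358, adjusted 0.0716; rho exact p = 0.132, adjusted 0.265), and 0.34 without those 2 libraries, so its relation rests on them. The other 4 genes had r from -0.14 for Kcna6 to 0.52 for Kcnc4, with adjusted exact p-values of 0.299 or more. Without wild-type libraries 1 and 4, r was 0.76 for Kcna6, 0.50 for Kcnc2, 0.30 for Kcnab1 and 0.19 for Kcnc4. The contrast of Kcna6 with Kcna1, Kcnc1 and Kcna2 thus depends on those 2 libraries.

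**Figure D4:**
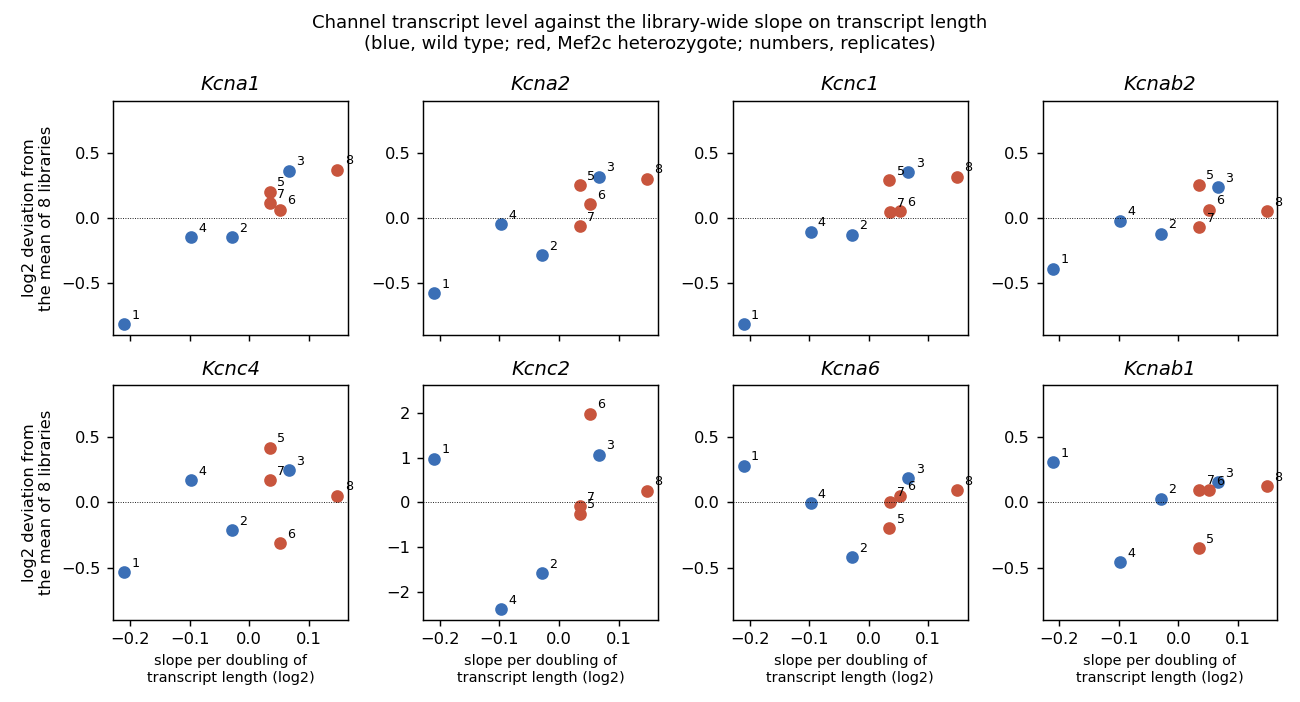
Log2 deviation of each channel gene from its mean over 8 libraries (vertical axis, wider for Kcnc2) against the library's slope on transcript length (horizontal axis, log2 per doubling), wild type in blue and heterozygote-labelled in red, with replicate numbers. Kcna1, Kcnc1 and Kcna2 rise with the slope (r of 0.95, 0.92 and 0.87), and wild-type library 1 sits at the lowest slope, -0.21.

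When each library's trend with transcript length was removed, the log2 fold change of Kcna2 went from 0.30 to 0.02 and that of Kcnc1 from 0.35 to 0.15. The slope itself went with genotype in part: it was above 0 in heterozygote-labelled libraries 5 to 8 and below 0 in wild-type libraries 1, 2 and 4. The correction can thus also remove a genotype difference, and these cannot be told apart here. Kcna2 and Kcnc1 have the longest transcripts of the 8 genes, at 11582 and 7760 bases. For Kcna1, whose longest transcript has 4031 bases, the log2 fold change went from 0.38 to 0.32. That of Kcnab2 became 0.10 and that of Kcnc2 0.85. After the correction r was 0.95 for Kcna1 and Kcnc1 (exact p = 0.00278) and 0.95 for Kcnab2 and Kcnc1 (exact p = 8.681e-04). It was 0.86 for Kcna2 and Kcnab2, 0.83 for Kcna1 and Kcnab2, 0.75 for Kcna2 and Kcnc1, and 0.58 for Kcna1 and Kcna2 (exact p = 0.114, the only unadjusted p of the 6 above 0.05). The highest Kcnc2 library was still 18.8 times the lowest.

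Genes with the most similar pattern over the 8 libraries were looked up among 13348 genes with a mean of at least 50 normalized counts, as a description. For Kcna1 they were Snx27, a sorting nexin, at r = 0.998 and Cdc42bpa, a kinase, at 0.99. For Kcna2 they were Coro2b, a coronin, at 0.99 and Cntnap2, at 0.99, which encodes Caspr2, the adhesion molecule bound to Kv1 channels. Cntnap2 had 611.2, 742.8, 1136.6 and 943.3 normalized counts in wild type and 1068.8, 1027.3, 879.2 and 1141.1 in the heterozygote-labelled libraries. The nearest genes to Kcnab2 were Ina, the neuronal intermediate filament alpha-internexin, and Syt2, a synaptotagmin of fast synapses, both at 0.99. Those nearest to Kcnc1 were Aak1, an adaptor-associated kinase, and Map1a, a microtubule-associated protein, both at 0.998. Kcnc4 lay nearest to Cdk15 at 0.99 and Aar2 at 0.96, Kcna6 to Apex2 at 0.96 and Zfp672 at 0.93, and Kcnab1 to Gm14440 at 0.98 and Simc1 at 0.95.

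For Kcnc2 the nearest genes were F2r, the thrombin receptor PAR1, at r = 0.997 and Plcxd2 at 0.99. F2r was at 1059.0, 465.2, 1044.0 and 331.0 normalized counts in wild type and at 660.4, 1518.7, 728.5 and 776.3 in the heterozygote-labelled libraries, the same order of libraries as Kcnc2 but for the top 2 of wild type. A further set, chosen after the values were seen, was the synaptotagmin Syt1 and the delayed rectifier Kcnb2, each at r = 0.93 with Kcnc2, the Kv4 auxiliary subunit Dpp6 at 0.83 and the Kv4 pore subunit Kcnd3 at 0.68. With Kcnc1, its Kv3 relative, Kcnc2 had r = 0.04. With Slc17a7, the vesicular glutamate transporter of spiral ganglion neurons, Kcnc2 had r = -0.23 and Kcnc1 0.95. Of the libraries high in Kcnc2, wild-type library 3 was also the highest for Kcnc1 and wild-type library 1 the lowest. Which cells the Kcnc2 reads came from was not tested.

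**Figure D5:**
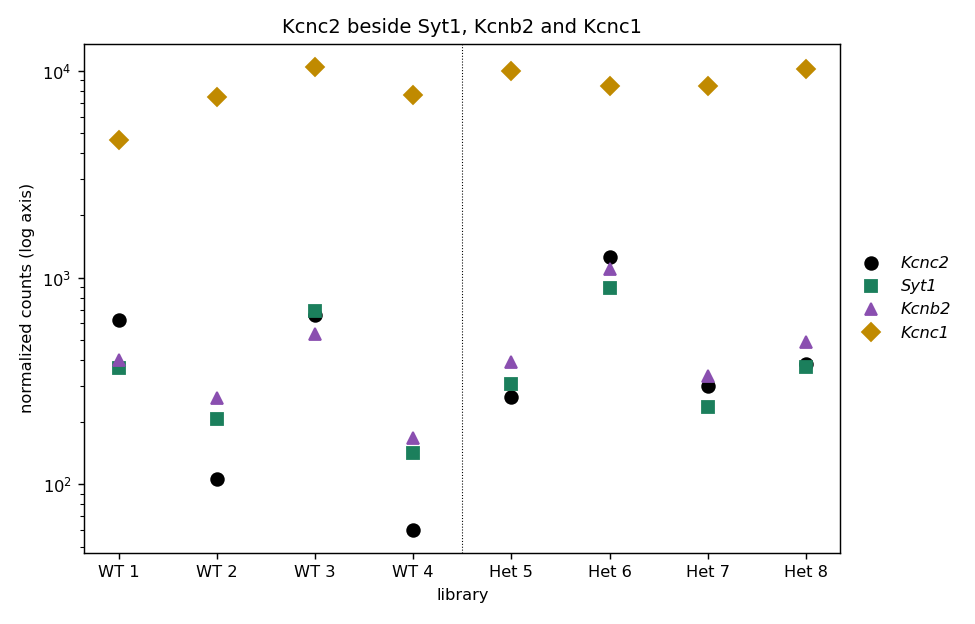
Normalized counts (vertical log axis) of Kcnc2, Syt1, Kcnb2 and Kcnc1 in each library, wild type at left of the dotted line and heterozygote-labelled at right. Kcnc2, Syt1 and Kcnb2 are lowest in wild-type library 4 and highest in heterozygote-labelled library 6, whereas Kcnc1 is lowest in wild-type library 1.

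Upstream windows are shown for 3 of the genes that moved together and for Kcnc2, which did not over all libraries, so that their base composition can be compared. Each is the 250 bases before a RefSeq start site (GRCm38.p6, the build called mm10), 5′ to 3′ on the gene's strand. Capitals mark GGGCGG or its complement CCGCCC, the core of a GC box.
Kcna2, chr3:107101317-107101566, plus strand: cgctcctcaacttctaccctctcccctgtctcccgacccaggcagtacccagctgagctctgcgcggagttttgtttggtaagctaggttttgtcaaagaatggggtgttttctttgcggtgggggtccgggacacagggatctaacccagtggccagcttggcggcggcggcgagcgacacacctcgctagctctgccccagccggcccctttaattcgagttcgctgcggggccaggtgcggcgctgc
Kcnc1, chr7:46396218-46396467, plus strand: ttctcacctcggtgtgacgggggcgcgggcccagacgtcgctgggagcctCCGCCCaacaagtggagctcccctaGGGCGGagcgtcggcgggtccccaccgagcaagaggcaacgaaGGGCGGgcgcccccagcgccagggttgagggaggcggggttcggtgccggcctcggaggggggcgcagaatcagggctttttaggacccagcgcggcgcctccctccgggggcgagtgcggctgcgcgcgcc
Kcnab2, chr4:152477550-152477799, minus strand: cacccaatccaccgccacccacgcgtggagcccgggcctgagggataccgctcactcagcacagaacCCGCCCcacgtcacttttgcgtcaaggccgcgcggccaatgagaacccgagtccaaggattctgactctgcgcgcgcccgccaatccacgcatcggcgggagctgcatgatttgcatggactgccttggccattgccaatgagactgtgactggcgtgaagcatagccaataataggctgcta
Kcnc2, chr10:112270871-112271120, plus strand: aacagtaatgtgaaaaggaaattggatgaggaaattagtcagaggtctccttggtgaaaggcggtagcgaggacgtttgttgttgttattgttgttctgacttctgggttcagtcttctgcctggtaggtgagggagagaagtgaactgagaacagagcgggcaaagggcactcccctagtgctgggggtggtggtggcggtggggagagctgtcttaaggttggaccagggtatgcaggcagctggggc
Composition and motifs were counted over 300 bases, these 250 and the 50 after the start. The windows of Kcnc1, Kcna2 and Kcnab2 were 74.7%, 66.7% and 62.7% G or C and held 41, 31 and 25 CG pairs. The Kcnc2 window was 52.7% G or C with 5 CG pairs. Over all 32851 windows the median was 52.7% G or C and 7 CG pairs. GGGCGG on either strand was found 3 times for Kcnc1, 2 times for Kcnab2, 1 time for Kcna2 and 0 times for Kcnc2 in these windows, and 35.7% of all windows held it. Other start sites of the same genes differed: the other 2 Kcnab2 windows held it 0 times, with 56.0% and 55.0% G or C and 5 and 3 CG pairs. A Kcnc2 window further upstream held it 1 time, with 52.7% G or C. Genes outside the pairs that passed were also mixed. Kcnc4 had 66.7% G or C, 17 CG pairs and GGGCGG 1 time, and Kcna6 had 58.3%, 8 and 0. Of the Kcnab1 windows, 1 held GGGCGG 2 times at 46.7% G or C, and the rest held it 0 times. The contrast between the windows shown therefore depends on the start site and on the genes chosen. The letters of the MEF2 consensus, searched on both strands, were in 0 of the windows of the 7 genes that have one, and in 3.19% of all windows. A match describes these letters only, and its absence says nothing about binding. The Kcna2 and Kcnab2 windows shown lie inside the genes as GENCODE M21 draws them, and the RefSeq table also holds several start sites for Kcnab1.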

How the data were processed

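Per the labels' protocols, poly(A) libraries were made with a strand-marking kit from 50 ng of total RNA per mouse, with an RNA integrity number of at least 7. The submitters' processing notes name Partek, STAR, DESeq2 and the build mm10, without versions or roles. In the table the authors deposited, each library has a signal column of gene counts divided by a size factor to 1 decimal, as judged from the values. Per the file headers it also holds the authors' p-value and FDR, their ratio of heterozygote to wild type, the log2 of that ratio, and a fold change with a sign, which is a score and went unused. The step worth 1 read was estimated in each column, and 89.3% to 92.3% of values under 1000 were whole multiples of it (tolerance 0.06 normalized counts), where chance gives 9.77% to 15.2%. Recovering reads needs 95%, so no count model was used, although the design named one for counts.

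The 14870 genes that reached 10 normalized counts in 4 or more libraries were fitted with limma-trend (limma 3.58.1, R 4.3.3) on log2(value + 1) over the 8 libraries without covariates. Fold changes are on that scale and understate the change of low genes. P-values were Benjamini-Hochberg adjusted over all genes, with a threshold of 0.05, and the fit was tested on simulated data. Single values had a two-sided exact permutation test (Python 3.11.15, scipy 1.17.1). Each library is 1 mouse, and p-values measure the spread between these mice. Lengths and positions came from GENCODE M21, with a length for 14668 genes (97.6%). The length correction removed a loess trend (span 0.5) of each library's deviation from the gene mean.

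Named genes were the 8 channel genes, Mef2c, the 2 genes of smallest p in each list of other Kv genes and partners, any gene of those lists past the threshold, and the 2 genes most correlated with each channel gene. Overlapping genes, other subunits measured and 5 genes beside Kcnc2 and Kcnc1 (Syt1, Kcnb2, Dpp6, Kcnd3, Slc17a7) were named after their values were seen. The genes and lists were chosen with earlier results of these data known. 1 gene of the design's lists is not reported here. Alternatives were 2 pseudocounts, 2 filters, limma-voom on estimated reads, upper-quartile, TMM (trimmed mean of M values) and quantile scaling, the length correction, low Xist as a covariate, and libraries left out. The alternatives for correlations were added after seeing the data.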

Additional observations from a re-analysis of the deposited data

Results flagged for a closer look

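3 of 54 groups of 4 libraries checked had 1 library far from the other 3, by the gap to its nearest neighbour as a share of the group's range, which was above the 95% critical value of Dixon's test, and chance gives about 2.7. Kcnab1 in the libraries labelled heterozygote had library 5 at 273.7 normalized counts below 372.9, 373.2 and 380.7, a gap share of 0.927. Kcnc2 in the same group had library 6 at 1257.3 above 265.0, 298.7 and 380.7, a gap share of 0.883. The log2 ratio of Kcnc1 to the sum of Kcnc2 and Kcnc4 was 2.57 in library 6 against 3.96 to 4.18 in the other 3, a gap share of 0.866. This last value shares the Kcnc2 reading of library 6.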

How the results depend on the processing

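0 of the 8 channel genes passed the threshold in any of the 19 alternatives run. The number of all genes past the threshold, 12, became 7 with quantile normalization, 27 with the length correction and 0 to 221 with 1 library left out: 0 without replicate 2, 4 or 8, 221 without replicate 3, 7 without replicate 5 and 6 without replicate 7. The count for other Kv genes and partners, 0, became 0 to 1 with 1 library left out, the 1 being Adam11 without wild-type library 3 (log2 fold change 0.95). Fold changes near 0 changed sign. Kcna6 was at 8.607e-04 with limma-voom, 0.13 without the 2 libraries low in Xist and -0.16 to 0.069 with 1 library left out. Kcnab1 was at 0.20 without the libraries low in Xist and -0.17 to 0.10 with 1 left out, and without the libraries low in Xist Kcnab2 was at -0.018 and Kcnc4 at -0.10. The log2 ratio of Kcnab1 to Kcnab2 differed by 0.22 without the libraries low in Xist and by -0.34 to 0.041 with 1 left out. That of Kcnc1 to Kcnc2 and Kcnc4 differed by -0.74 without the libraries low in Xist and by -0.58 to 0.21 with 1 left out, beside -0.16 with all 8. The correlation of Kcna1 with Kcna2 was 0.58 after the length correction, and that of Kcna1 with Kcnab2 was 0.74 without the libraries low in Xist and 0.68 without wild-type library 1. The cause of these shifts was not tested. Kcna1, Kcna2, Kcnc1 and Kcnc2 stayed above 0 in all 19 alternatives, from 0.16 to 0.56, 0.02 to 0.45, 0.10 to 0.53 and 0.32 to 1.68. No paired analysis was possible because the groups share no replicate number. With 4 libraries a group, changes of a size within the intervals given are not excluded, and the smallest detectable change was not computed. At 4.8 normalized counts in wild-type library 4, Kcnh7 rests on a few reads there.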
